A study of Drosophila melanogaster with 6 samples.

Results

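The vacuolar ATPase (V-ATPase) is the proton pump that acidifies endosomes, lysosomes and other compartments, and in fly each of its subunits is encoded by 1 or more genes named Vha. All rows of the count table whose FlyBase symbol starts with Vha were taken, which gave 33 of the 17633 genes counted. The rule used names only, but the gene set was chosen with earlier results of these data known. RNA came from whole ovaries of Drosophila melanogaster females of 3 to 6 days, with 3 libraries for each of 2 genotypes. The first group was homozygous for flamDeltaProm, a deletion allele of flamenco (flam) named for its promoter. flam is an X-linked locus that produces piRNAs against transposons in follicle cells. The second carried flamDeltaProm over FM7, an X balancer chromosome, so both groups carried the deletion, in 2 copies or 1. They also differed in the presence of FM7, and these 2 differences cannot be told apart here. The series also names ovaries with a knockdown of traffic jam, which were not analysed here. Sample titles call the other X chromosome of that group wild type, but their genotype entries give FM7, which is the name used here. Both groups were wild type on the other listed chromosomes, and since no label ties a replicate to its own flies, p-values reflect only how far these samples scatter, which may be technical.

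The pump has a cytosolic part, V1, which hydrolyses ATP, and a membrane part, V0, which carries protons. In V1, subunits A and B form the catalytic head, D and F the central shaft, E and G the outer stalks, C joins V1 to V0, and H regulates the pump. In V0, copies of c and c'' form the rotating ring, a holds the proton path, d links ring and shaft, and e is a small membrane subunit. In the fly ovary, V-ATPase activity is known to be needed in follicle cells for Notch signalling, and the oocyte takes up yolk by endocytosis into compartments that are acidified.

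The libraries held 19564819 to 23181058 counts, and a floor of 3 counts, applied where a gene had none, equalled 0.126 to 0.16 CPM (counts relative to library size, with sizes scaled by trimmed mean of M-values, TMM, factors of 0.961 to 1.03). flam itself, checked first, was counted 12, 6 and 18 times in homozygotes 1 to 3 but 43, 37 and 41 times in FM7 replicates 1 to 3, so the groups did not overlap and followed their labels. Its log2 fold change, homozygous over FM7 as in all fold changes here, was -1.93 (SE 0.39, adjusted p = 0.0119, edgeR quasi-likelihood test with Benjamini-Hochberg adjustment over all features tested). Some markers of tissues other than germline and follicle cells were called higher in homozygotes. Of haemocyte markers 7 of 8 tested were higher (median log2 fold change 3.19), and their list summed to 255 to 297 CPM in homozygotes and 211 to 220.1 CPM in FM7 libraries, or 48.1 to 77.5 against 5.33 to 8.52 CPM without crq, the uncalled marker that held most of the sum. Called higher were also, of muscle sheath markers, 7 of 10 (summed level 408 to 650.4 against 286 to 349.8 CPM), of fat body markers 2 of 5 (559.9 to 616 against 354 to 388 CPM) and of renal tubule markers 2 of 6 (280.3 to 296 against 221 to 234 CPM). Among all genes tested, 11.7% were called higher. Most of the fat body sum came from FASN1, called higher, and Cyp4g1, uncalled. Most of the renal tubule sum came from ZnT35C and Irk1, both uncalled. None of these lists had a member at 0 in all FM7 libraries, and none had a tested member called lower. The fat body marker Fbp1, which did not pass the filter on low counts, went the other way. It had 0, 2 and 1 counts in homozygotes 1 to 3 against 10, 4 and 4 in FM7 replicates 1 to 3. Of follicle cell markers 2 of 9 were higher and 4 lower (1565 to 3903 against 7895 to 8834 CPM). Most of that sum came from Cp36, uncalled, with means of 1378 CPM in homozygotes and 5849 CPM in FM7 libraries. Vm26Aa, called lower, followed at 958 and 2258 CPM, so the sum says little of the other follicle cell markers. Of 8 germline markers none was called in either direction by edgeR, with 4 at an unadjusted p under 0.05, all with a positive fold change. In whole ovaries, fewer cells of a type and less RNA per cell cannot be told apart, and the part of these tissues in the V-ATPase values was not tested.

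Each subunit of the pump had at least 1 strongly expressed gene, and nearly all of these genes were at closely similar levels in the 2 genotypes. Of the 33 genes, 16 had a mean of at least 10 CPM and are called abundant here, 4 were weakly expressed, and 13 stayed under 1 CPM in every library and are called near zero. The abundant genes were 8 of the 13 V1 genes, 7 of the 18 V0 genes and 1 of the 2 accessory genes. By edgeR, 19 members could be tested, and of these none was called higher and 1, Vha44, was called lower at an adjusted p threshold of 0.05. Among all 9150 genes tested, 19.5% were called, 11.7% higher and 7.75% lower, and among the 6802 of at least 10 CPM 15.7% were called, 6.66% higher and 9.06% lower. At an unadjusted p under 0.05 there were 4 members, 3 higher and 1 lower, against 35.4% of all genes tested and 31.5% of those of at least 10 CPM, where 2 of the 16 abundant members had such a p. The members that passed the filter on low counts include 3 weakly expressed ones, so these counts do not stand for all 33 genes.

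**Figure D1:**
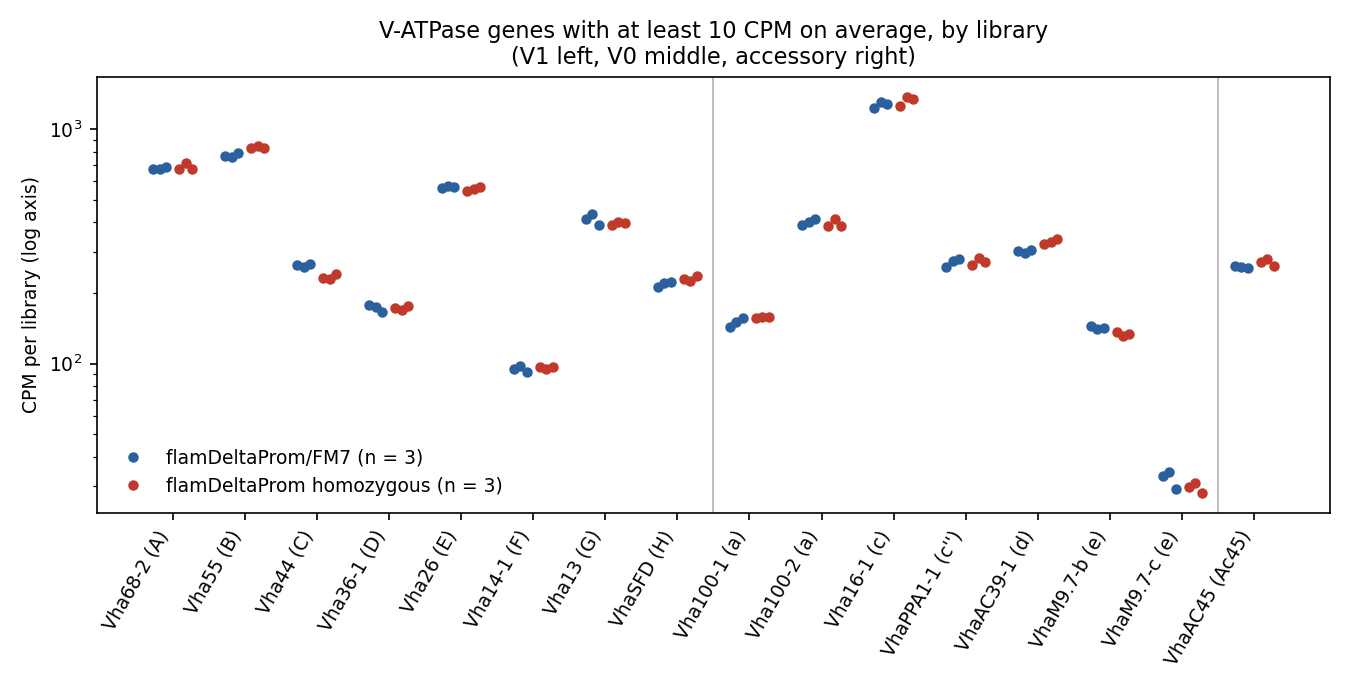
CPM per library (log axis) of the 16 V-ATPase genes with a mean of at least 10 CPM, each point 1 library, with the subunit in brackets. Vha16-1 stands highest at 1233 to 1376 CPM and VhaM9.7-c lowest at 28.0 to 34.4 CPM, and for most genes the points of both genotypes lie at the same height.

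The catalytic head was encoded almost wholly by Vha68-2 (subunit A) and Vha55 (subunit B). Vha68-2 was at 675, 719 and 677 CPM in homozygotes 1 to 3 and at 676, 679 and 688 CPM in FM7 replicates 1 to 3. These ranges overlapped, and the fold of homozygotes over FM7 was 1.01 with a 95% interval of 0.924 to 1.11. Vha55 was at 829, 849 and 832 CPM in homozygotes and 771, 759 and 789 CPM in FM7 libraries. All homozygous libraries were thus above all FM7 libraries for Vha55, by a log2 fold change of 0.11 (SE 0.06), but the adjusted p was 0.199 by edgeR's quasi-likelihood test. By DESeq2 on the same counts Vha55 passed, with an adjusted p of 0.0463.

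The shaft and stalk genes of V1 showed no called difference. Vha36-1 (subunit D) was at 172, 169 and 176 CPM in homozygotes and 178, 174 and 166 CPM in FM7 libraries. Its log2 fold change was 0.0010, with an interval of 0.925 to 1.08 for the fold. Vha14-1 (subunit F) was at 96.7, 94.8 and 96.2 CPM against 94.9, 97.4 and 91.6 CPM, again with overlapping groups. The stalk genes Vha26 (subunit E, 545 to 566 CPM in homozygotes and 563 to 575 CPM in FM7) and Vha13 (subunit G, 391 to 402 against 389 to 434 CPM) also overlapped, with log2 fold changes of -0.03 (SE 0.05) and -0.06 (SE 0.06). VhaSFD, which encodes the regulatory subunit H, was at 229.6, 225 and 236 CPM in homozygotes and 213, 222 and 222 CPM in FM7 libraries. Its groups did not overlap, but its log2 fold change of 0.07 (SE 0.05) had an adjusted p of 0.331.

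Vha44, the gene of subunit C, which joins V1 to V0 when the pump assembles, was the only member past the threshold. It was at 232, 229 and 242 CPM in homozygotes 1 to 3 and at 264, 257 and 266 CPM in FM7 replicates 1 to 3. Every homozygous library was lower than every FM7 library. The fold was 0.893 (95% interval 0.826 to 0.965, log2 fold change -0.16, SE 0.05), and edgeR's adjusted p was 0.0483. Leaving out any single library except FM7 replicate 3 ended the call, at adjusted p of 0.0838 to 0.139 by edgeR, and leaving out FM7 replicate 3 gave 0.0429. With library sizes alone the log2 fold change was -0.08 and the adjusted p 0.328, and with TMM factors from rows of at least 10 CPM they were -0.13 and 0.0988. The call was also lost with no filter (adjusted p = 0.07 by edgeR) and by limma-voom (0.0506), and it was kept by DESeq2 (0.0141). Vha44 lies on the minus strand of 2R from 16324813 to 16336637 (Ensembl BDGP6.54). It shares 148 of its 4023 exon bases with Hmgs, a gene of the mevalonate pathway on the other strand, itself at -0.05 on the log2 scale (adjusted p = 0.729 by edgeR). The sources used here do not give the strand setting of the counting.

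Among V0 genes, none was called. Vha16-1, the gene of the ring subunit c and the member with the most counts, was at 1258, 1376 and 1349 CPM in homozygotes and 1233, 1306 and 1279 CPM in FM7 libraries. These ranges overlapped, with a fold of 1.04 and an interval of 0.934 to 1.17. VhaPPA1-1, the gene of ring subunit c'', was at 263, 282 and 271 CPM against 258, 273 and 278 CPM, so its groups overlapped too. VhaAC39-1, the gene of subunit d, was at 325, 330.1 and 339 CPM in homozygotes and 302, 295 and 305 CPM in FM7 libraries. These groups did not overlap, and the log2 fold change of 0.14 (SE 0.05) was the largest positive one among abundant members, but its adjusted p was 0.075. It lies on X, the chromosome that differs between the genotypes, at 3880748 to 3882967. VhaAC39-1 passed by DESeq2 (adjusted p = 0.0257), with library sizes alone (0.0228), with TMM factors from rows of at least 10 CPM (0.0354) and without FM7 replicate 3 (0.0492), each time higher in homozygotes.

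Subunit a, which sets where the pump goes in the cell, and the small subunit e were each encoded by a pair of abundant genes. Vha100-2, which is widely expressed, was at 388, 414 and 387 CPM in homozygotes and 390.5, 399.8 and 412 CPM in FM7 libraries, with overlapping groups. Vha100-1, best known from synaptic vesicles of neurons, was at 156, 158 and 159 CPM against 144, 149.9 and 156 CPM. Of the homozygous libraries, 2 lay above all FM7 libraries and 1 just under the highest of them, and the log2 fold change was 0.07 (SE 0.05, adjusted p = 0.327). Per kilobase of exon, Vha100-1 made up 28.0% ± 0.708 (SD, n = 3) of subunit a RNA in homozygotes and 26.7% ± 0.311 in FM7 libraries. This share does not depend on library scaling, and the exact two-sided permutation p for it was 0.1, and no smaller p is possible with 3 samples against 3. For the share of Vha100-2, 71.7% ± 0.820 against 73.0% ± 0.507 (SD, n = 3), the same permutation test gave p = 0.2. Shares of all copies of subunits with several genes were tested in this way, without adjustment for their number. VhaM9.7-b was at 137, 131 and 133 CPM in homozygotes and 145, 140.5 and 142 CPM in FM7 libraries. All homozygous libraries were lower for VhaM9.7-b, but its log2 fold change of -0.09 (SE 0.05) had an adjusted p of 0.178. VhaM9.7-c was at 28.0 to 30.9 CPM against 29.3 to 34.4 CPM, and made up 24.1% ± 1.07 of subunit e RNA per kilobase in homozygotes and 24.5% ± 1.64 in FM7 libraries (SD, n = 3).

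The accessory gene VhaAC45, the counterpart of human ATP6AP1, was at 272, 278 and 262 CPM in homozygotes and 261, 258 and 254 CPM in FM7 libraries, so the groups were just apart. By edgeR it differed by 0.07 on the log2 scale (SE 0.05, adjusted p = 0.336). ATP6AP2, the other accessory gene, was formerly VhaM8.9 and is no member under its present symbol. It was at 235, 253 and 236 CPM against 221, 228 and 225 CPM, a log2 difference of 0.10 by edgeR (SE 0.05) at an adjusted p of 0.187.

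**Figure D2:**
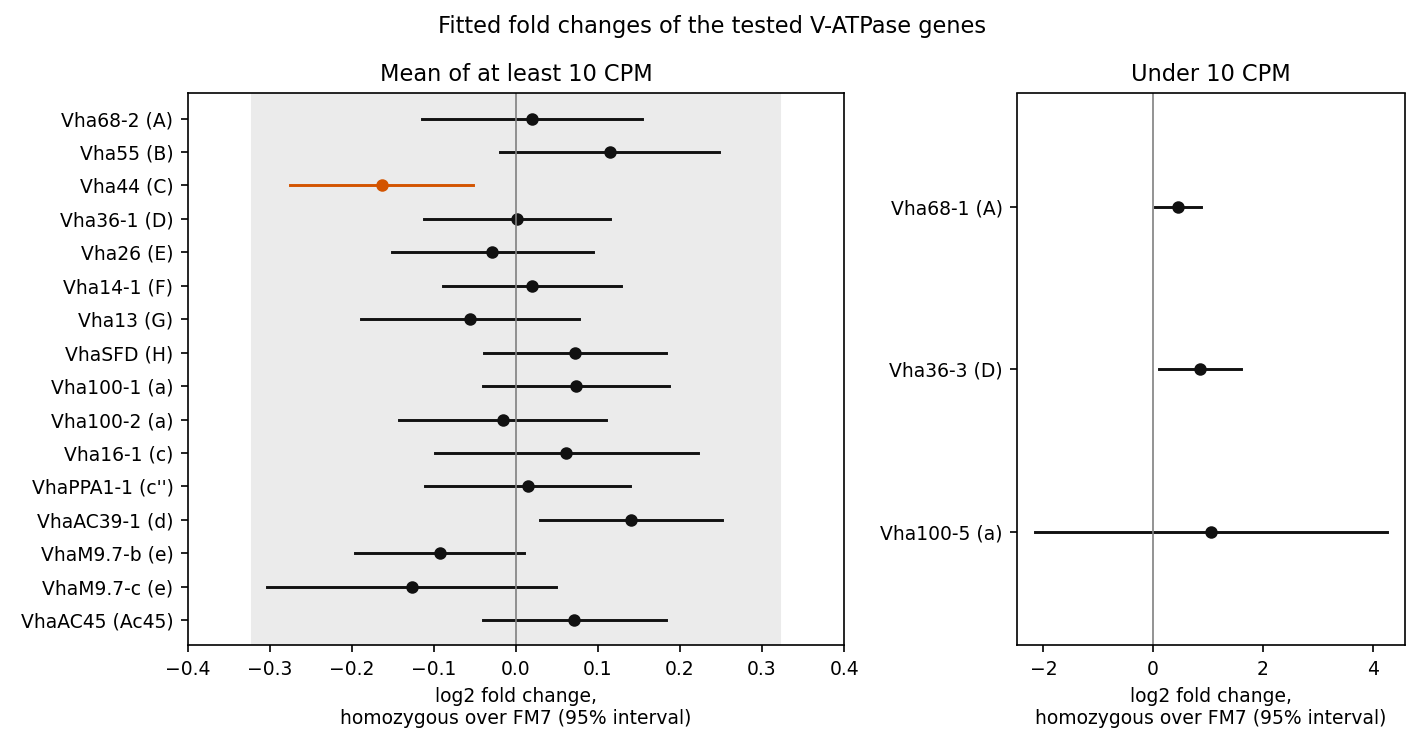
Fitted log2 fold changes with 95% intervals of the 19 tested V-ATPase genes, with abundant genes at the left and weakly expressed genes on a wider axis at the right. The shaded band, chosen after the values were seen, is 1.25-fold in either direction and holds the intervals of all 16 abundant genes. Vha44, in orange, is the gene past the threshold.

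Across the 16 abundant genes the fitted changes were small in both directions. The log2 fold changes ran from -0.16 (Vha44) to 0.14 (VhaAC39-1), with 10 above 0 and 6 below, and a median of 0.02, against -0.03 for the 5079 genes with mean levels in the same range, 30.9 to 1300.3 CPM. The medians of the abundant V1 and V0 genes were both 0.01. All 16 intervals, from the fit with TMM scaling, lay within 1.25-fold of no change, a band chosen after the values were seen. The lowest bound was 0.810 (VhaM9.7-c) and the highest 1.19 (VhaAC39-1). Of the genes in the same range of levels, 74.1% had such an interval and 14.4% were called. Groups did not overlap for 8 of the 19 tested members, 6 higher and 2 lower in homozygotes, against 41.7% of all genes tested, and for 6 of the 16 abundant members, against 37.8% of genes of at least 10 CPM. The coefficient of variation over all 6 libraries ran from 1.77% (Vha26) to 7.92% (VhaM9.7-c) among abundant members, with a median of 3.65%. Of the 16, 15 were under the median of 6.57% for genes in that range of levels. Genes in that range were not matched to the members by level. Its low end was set by VhaM9.7-c alone, and the next member up, Vha14-1, averaged 95.3 CPM.

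Summed over all 33 genes, V-ATPase RNA was at 6141 ± 124 CPM in homozygotes and 6014 ± 62.4 CPM in FM7 libraries (SD, n = 3), and the ranges of 6008 to 6255 and 5944 to 6062 CPM overlapped. As a share of all counts in a library, without TMM scaling, the values were 0.632% ± 0.0138 and 0.584% ± 0.0135 (SD, n = 3), and here every homozygous library, from 0.618%, was above every FM7 library, up to 0.599%. The ratio was 1.02 with TMM scaling and 1.08 without it, so whether the groups overlapped depended on the scaling.

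Per kilobase of exon the abundant genes differed widely from each other, and the order of their mean levels was the same in both genotypes except for the 2 highest. Vha13 (421 ± 6.25 in homozygotes and 437 ± 23.6 CPM per kb in FM7, SD, n = 3) and Vha16-1 (432 ± 20.1 and 414 ± 11.9) were highest and did not differ from each other beyond their spread. Vha55 (300.3 ± 3.90 and 277 ± 5.44) and Vha68-2 (250.1 ± 8.98 and 247 ± 2.31) followed, then VhaPPA1-1, Vha26, VhaAC39-1 and Vha36-1 between 162 and 201 in homozygotes. The lowest levels were those of VhaSFD (81.3 ± 1.97 and 77.4 ± 1.81), Vha44 (58.3 ± 1.64 and 65.3 ± 1.19), Vha100-1 (48.0 ± 0.413 and 45.6 ± 1.94) and VhaM9.7-c (34.9 ± 1.68 and 38.1 ± 3.19). Genes of subunits A, B, E, G and c, which each pump holds in several copies, were among the 6 highest by mean, together with VhaPPA1-1 (201 ± 7.16 and 199 ± 7.94), which did not differ from Vha26 (190.1 ± 3.64 and 194 ± 2.17) in FM7 libraries beyond the spread. Of the 17598 genes with a known exon length, Vha13 ranked 168 and VhaM9.7-c 2535 by mean level per kilobase. Summed per kilobase, the ratio of V1 to V0 RNA was 1.42 ± 0.0237 in homozygotes and 1.45 ± 0.037 in FM7 libraries (SD, n = 3), a difference within the spread.

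**Figure D3:**
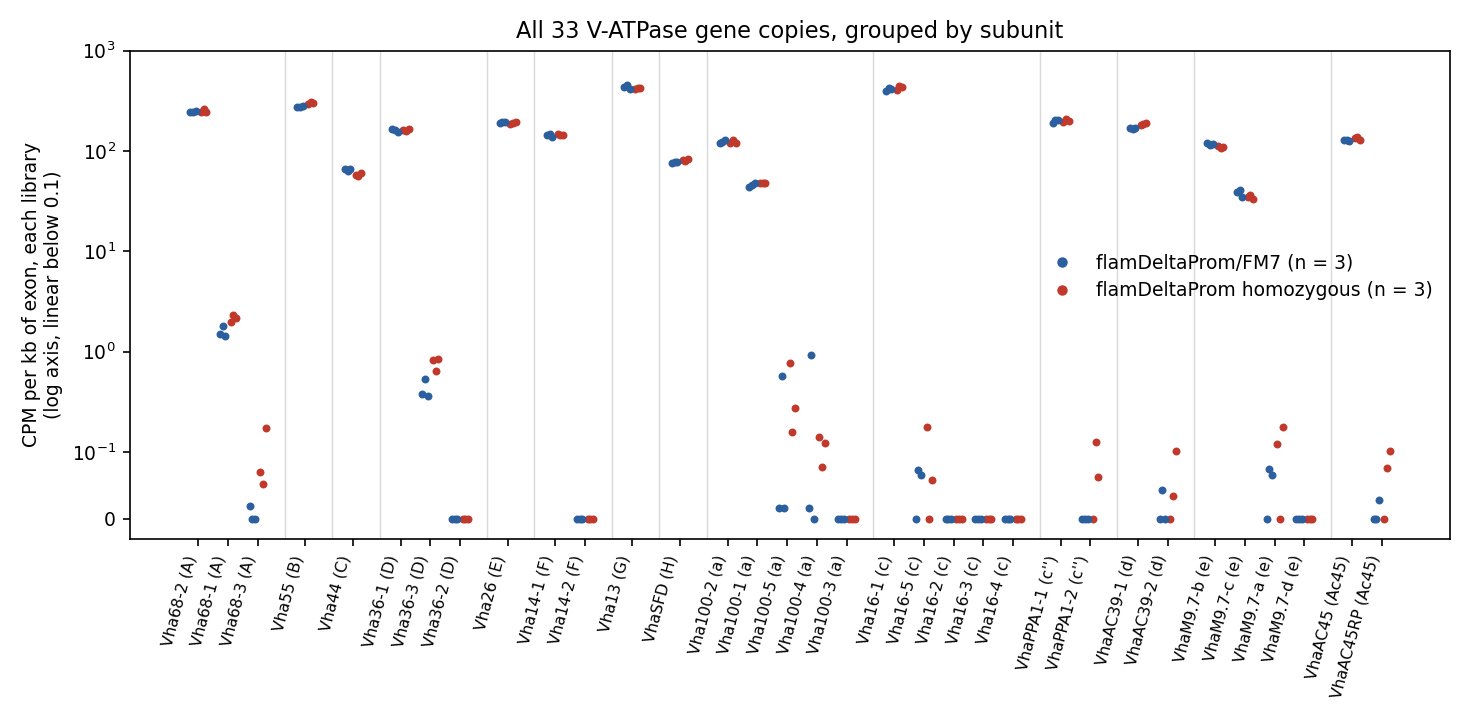
CPM per kilobase of exon in each library (log axis, linear below 0.1) of all 33 V-ATPase genes, grouped by subunit. Within each subunit with several copies, 1 or 2 copies stand above 30 CPM per kb and the others lie at least an order of magnitude lower or at 0.

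Additional copies of the subunit genes, many of them known from testis or gut in fly, were close to silent in these ovaries. Of the 13 genes near zero, 7 had no count in any library: Vha14-2, Vha16-2, Vha16-3, Vha16-4, Vha36-2, Vha100-3 and VhaM9.7-d. With no count, a level up to 0.126 to 0.16 CPM in a library is allowed by counting error alone. The other 6 were Vha16-5, Vha68-3, VhaAC39-2, VhaAC45RP, VhaM9.7-a and VhaPPA1-2, whose counts summed to 40 over the homozygous and 7 over the FM7 libraries, with at most 0.422 CPM in a library. Each of these 6 had more counts in homozygotes, but none passed the filter on low counts. The share of other genes near zero with more counts in homozygotes was not computed. Calls were 1071 higher and 709 lower among all genes tested, but 453 and 616 among those of at least 10 CPM. Tested genes under 10 CPM were thus called higher more often than lower, so this direction is not particular to V-ATPase copies. Vha68-3 held more of them than any of the other 5, counted 4, 3 and 10 times in homozygotes 1 to 3 against 1, 0 and 0 times in FM7 replicates 1 to 3, a ratio of 15.8 with an exact 95% interval of 2.47 to 659 that covers counting error only. In the edgeR fit without a filter, which held these 6 genes, none was called, and Vha68-3 was the 1 with an unadjusted p under 0.05 (log2 fold change 3.50, adjusted p = 0.0513).

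Some copies near zero or weakly expressed lie next to an abundant one of the same subunit. On 2L, Vha68-3 starts 178 bases after the end of Vha68-2 on the same strand, and they averaged 0.127 and 685 CPM. On 3R, Vha100-4 lies 517 bases from Vha100-2, and they averaged 0.579 and 399 CPM, both on the minus strand. VhaPPA1-2 and VhaPPA1-1, also on the minus strand of 3R, are 2052 bases apart and averaged 0.021 and 271 CPM. The pair Vha16-3 and Vha16-2 on 3L, 985 bases apart, had no counts at all. Of the near-zero copies 6 of 13 are annotated without an intron, against 3 of the 16 abundant genes (Vha36-1, Vha14-1 and VhaM9.7-c). No sequences were used here, so whether reads of an abundant copy can map to one near zero was not tested.

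The 4 weakly expressed members were minor copies of subunits A, D and a. They lay under 10 CPM, where tested genes in general were called higher more often than lower. Vha68-1 (subunit A) was at 5.29, 6.15 and 5.83 CPM in homozygotes 1 to 3 and 4.03, 4.79 and 3.80 CPM in FM7 replicates 1 to 3. All homozygous libraries were higher, with a fitted fold of 1.37 (95% interval 1.02 to 1.83) and an adjusted p of 0.119 by edgeR. Its share of subunit A RNA per kilobase was 0.851% ± 0.0439 in homozygotes and 0.633% ± 0.0805 in FM7 libraries (SD, n = 3, exact two-sided permutation p = 0.1). Vha36-3 (subunit D), which like VhaAC39-1 lies on X, had 25, 20 and 26 counts in homozygotes and 11, 13 and 10 in FM7 libraries. Again every homozygous library was higher, with a fitted fold of 1.81 (1.08 to 3.03) and an adjusted p of 0.0959 by edgeR. Its share of subunit D RNA was 0.472% ± 0.0585 against 0.262% ± 0.056 (SD, n = 3, exact two-sided permutation p = 0.1). The main copies of the same subunits, Vha68-2 and Vha36-1, had fitted log2 fold changes of 0.02 and 0.0010, and the difference in fold between copies was not tested beyond these shares.

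The other weak copies, Vha100-4 and Vha100-5 (both subunit a), were uneven among libraries of 1 genotype. Vha100-4, reported from the acid-secreting part of the midgut, was counted 9, 5 and 8 times in homozygotes 1 to 3 against 1, 47 and 0 times in FM7 replicates 1 to 3. FM7 replicate 2 was thus far above all other libraries. Vha100-5 had 53, 11 and 19 counts in homozygotes and 1, 31 and 1 in FM7 libraries, with homozygous replicate 1 and FM7 replicate 2 highest. On the log2 scale it differed by 1.05 (SE 1.3), and edgeR gave an adjusted p of 0.602. Without FM7 replicate 2 the log2 fold change of Vha100-5 was 4.51 and it passed, with an adjusted p of 0.0239 by edgeR, so whether it was called depended on that library. The log2 fold change was 0.17 without homozygous replicate 1, 0.48 without FM7 replicate 1 and 0.48 without FM7 replicate 3, with adjusted p of 0.815 to 0.943 by edgeR. For Vha100-4 the ratio of counts was 0.425 (exact 95% interval 0.244 to 0.718) with all libraries and 14.2 (2.29 to 586) without FM7 replicate 2. Both intervals cover counting error only, not the spread among libraries.

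RNA of midgut genes was high in the same FM7 library. A list of 15 genes of midgut digestion and identity, drawn up after the counts of Vha100-4 were seen, summed to 3960 counts in FM7 replicate 2 (211 CPM), 11 and 25 in FM7 replicates 1 and 3, and 230, 103 and 76 in homozygotes 1 to 3. Of the 15 genes, 14 had their highest count in FM7 replicate 2. The digestive protease genes Jon25Biii (1069 counts in that library, 0 and 4 in the other FM7 libraries) and Jon65Aiv (957, 0 and 4) were the most abundant. Npc2e was the exception and the only one of the list at 0 in all FM7 libraries. The part of midgut RNA in the Vha100-4 and Vha100-5 values was not tested.

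**Figure D4:**
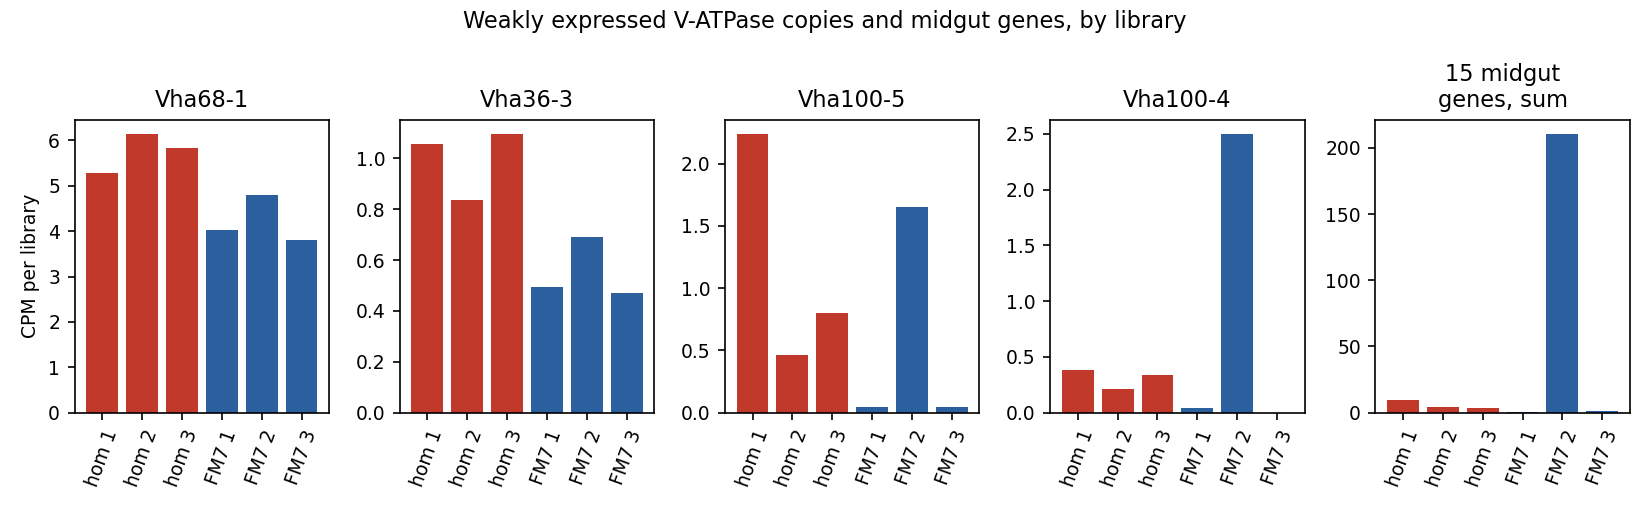
CPM in each library of the 4 weakly expressed V-ATPase genes and the summed CPM of 15 midgut genes, with homozygous libraries in red, FM7 libraries in blue and a separate axis for each panel. Vha68-1 and Vha36-3 are higher in all homozygous libraries, whereas Vha100-4 and the midgut genes peak in FM7 replicate 2, at 2.50 and 211 CPM.

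Genes that work with the pump were mostly at similar levels in both genotypes. For comparison, 19.5% of all genes tested were called by edgeR and 35.4% had an unadjusted p under 0.05. Among genes of at least 10 CPM these shares were 15.7% and 31.5%, and the median log2 fold change was -0.04. Of 10 genes of V-ATPase assembly and lysosomal signalling none was called in either direction by edgeR, with 1 at an unadjusted p under 0.05 and a median log2 fold change of -0.04. They included Rbcn-3A (0.10, SE 0.06) and Rbcn-3B (0.09, SE 0.06), whose proteins promote pump assembly, and Mitf (-0.15, SE 0.06, adjusted p = 0.116), the transcription factor gene that in fly drives V-ATPase and lysosomal genes. Of 15 tested genes of lysosomal enzymes and membrane proteins none was called, with 4 at an unadjusted p under 0.05, all with a negative fold change, and a median of -0.08. Hexo2 (-0.28, SE 0.09, adjusted p = 0.0584), a hexosaminidase gene, and Lamp1 (-0.19, SE 0.07, adjusted p = 0.0767), a lysosomal membrane protein gene, were nearest to the threshold. Cln3 had the most negative log2 fold change of that list, -0.47 (SE 0.17, adjusted p = 0.0894 by edgeR). Of 13 genes of endocytic and lysosomal traffic none was called by edgeR or at an unadjusted p under 0.05, with a median of -0.06. The yolk receptor gene yl, the most abundant of these, was at 2476 ± 96.7 CPM in homozygotes and 2727 ± 15 CPM in FM7 libraries (SD, n = 3), with an adjusted p of 0.209 by edgeR. By DESeq2, 1 gene of the lysosomal list and 1 of the traffic list were lower, and none of the assembly list was called in either direction. Without FM7 replicate 3, edgeR called 1 higher and 3 lower of the lysosomal list and 1 lower of the traffic list, and without homozygous replicate 1 it called 2 lower of the lysosomal list. With no filter on low counts it called 1 lower of that list.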

How the data were processed

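The authors deposited raw counts, whole numbers for each gene and transposon family, of 6 polyA libraries from ovaries. TRIzol RNA went into strand-specific libraries, per the labels' protocols. The submitters' processing notes name DESeq2 1.30.1, featureCounts 2.0.1 and STAR 2.7.8a but no role for any. Build, annotation and the treatment of multimapping reads: not given in the sources used here. Gene identifiers were matched to Ensembl release 115 (BDGP6.54) for symbols, positions and exon lengths, all 33 members matched, and their subunits were assigned from background knowledge of the symbols. The members and gene lists were chosen with earlier results of these data known. The class of at least 10 CPM, the 1.25-fold band, levels per kilobase of exon and TMM factors from rows of at least 10 CPM were chosen after the values were seen, and 1 list entry was respelled to match the annotation (cathD).

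All 9150 genes and 79 transposon families kept by filterByExpr were tested together with edgeR 4.0.16 in R 4.3.3 (TMM, robust quasi-likelihood fit). SEs were derived from the F statistic and the fold change without shrinkage, and 95% intervals use a t quantile with the fitted degrees of freedom. CPM use TMM-scaled library sizes. Every member was named, and of the pathway lists those past the threshold were to be named. As none was, those pathway genes that are named were picked with their values in view. The lists held 104 entries, the 15 of the midgut list included, of which 102 were found. DESeq2 1.42.0 and limma-voom (limma 3.58.1) were alternatives. The procedure was tested on simulated data with changes of 1.5-fold to 8-fold. It called 41 of 50 rows changed 1.5-fold, 38 of 50 changed 2-fold and 13 of 8891 unchanged rows. Changes as small as those fitted for the abundant members were not simulated. Replicates differed by more than sampling noise (chi-square over degrees of freedom from 8.16 to 38.7), so none was taken for a library deposited more than once, which does not show that they came from separate animals. Intervals of count ratios and floors cover counting error only, and PCR reads are not independent molecules.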

Additional observations from a re-analysis of the deposited data

How the results depend on the processing

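Of 13 alternatives, Vha44 passed the threshold in 3, and its log2 fold change stayed negative in all. No V-ATPase gene was lower with library sizes alone, TMM factors from rows of at least 10 CPM, no filter, the replicate block or limma-voom (each 0), and 0 to 1 were lower when 1 replicate was left out. The number higher was 1 with library sizes alone and with those TMM factors, 2 by the DESeq2 test (VhaAC39-1 and Vha55), and 0 to 1 when 1 replicate was left out. With library sizes alone the median log2 fold change was 0.103 for tested and 0.0993 for abundant members, 0.0931 for abundant V1 and 0.0964 for abundant V0 genes, against 0.0733 for all genes tested. With those TMM factors it was 0.0555 for tested members, 0.0526 for abundant members and 0.0460 for abundant V1 genes. Leaving out 1 replicate gave -0.0197 to 0.0135 for abundant V1 genes and -0.0219 to 0.0366 for abundant V0 genes. Some uncalled genes changed sign. With library sizes alone Vha100-2 was at 0.0660, Vha26 at 0.0539 and Vha13 at 0.0272, with those TMM factors Vha100-2 was at 0.0194 and Vha26 at 0.0070, and with no filter Vha36-1 was at -0.00854. With 1 replicate left out, Vha36-1 ran from -0.0321 to 0.0200, Vha14-1 from -0.00730 to 0.0349, Vha68-2 from -0.0136 to 0.0338 and VhaPPA1-1 from -0.0219 to 0.0366. With library sizes alone the median of all genes tested also moved upward, from -0.00939 to 0.0733. The cause of these shifts was not tested. Same-numbered replicates did not deviate together (correlations -0.303, -0.071 and -0.0387). With 3 libraries per group, such correlations cannot show whether same-numbered samples were prepared together. Under the replicate block Vha44 had an adjusted p of 0.108, and all-gene calls went from 1780 to 1021. They were 1031, 747 and 833 without homozygous replicate 2, homozygous replicate 3 and FM7 replicate 1. Copies near zero did not pass the filter on low counts, and without it 6 of the 13 were fitted and none was called.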
